A study of Mus musculus with 9 samples.

Results

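The latent TGF-beta binding proteins and TGF-beta itself were followed through 10 genes, of 24100 in the table: Ltbp1, Ltbp2, Ltbp3 and Ltbp4, the ligand genes Tgfb1, Tgfb2 and Tgfb3, the receptor genes Tgfbr1 and Tgfbr2, and Tgfbi, which encodes a secreted matrix protein named for its induction by TGF-beta. They were chosen by name, with changes against H4WT from an earlier look at the same libraries in view (the fall of Ltbp2 in both mutants among them). Their changes against H4WT are therefore given as a description, with calls but no p-values, and no threshold separates members from other genes. Each of the 10 passed the filter on low counts.

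The libraries were bulk poly(A) RNA of cells, neural by label, obtained by differentiating mouse embryonic stem cells. In all 9 libraries the cells stably carried an integrated PiggyBac transposon that encoded histone H4 with a triple HA epitope tag. The encoded histone was wild type in H4WT, had lysine 91 replaced by arginine in H4K91R, and by glutamine in H4K91Q, with 3 libraries in each group. The labels give neither the promoter of the transgene nor whether replicates are separate lines or differentiations, so p-values measure only the spread between these libraries.

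TGF-beta is secreted in a latent form, in which its own propeptide stays wrapped around the mature dimer. LTBP1, LTBP3 and LTBP4 bind this complex covalently and tether it to fibrillin microfibrils and fibronectin in the matrix, whereas LTBP2 sits on fibrillin microfibrils and elastic fibres and does not bind latent TGF-beta. Integrins, proteases and thrombospondin-1 can release the ligand, which binds the type II receptor TGFBR2. TGFBR2 then activates the type I receptor TGFBR1, which phosphorylates SMAD2 and SMAD3.

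Total counts ran from 8970553 to 28887501 per library, and H4WT replicate 2 was the deepest. Markers of several cell types were read beside the label. The 8 neuronal markers and 8 neural progenitor markers listed all had counts in every library. So did the 8 smooth muscle and 8 fibroblast and mesenchyme markers. Having counts is a low bar, passed by Myocd at a mean of 0.143 CPM in H4K91Q, and does not bear out the label. In every group the fibroblast and mesenchyme sum was above the neuronal sum, and in H4WT so was the smooth muscle sum. Col3a1 and Col1a1, at means of 2844 and 1829 CPM in H4WT, made up most of the fibroblast and mesenchyme sum there. Acta2 and Tagln, at 2478 and 1546 CPM, made up most of the smooth muscle sum. Sums of different lists therefore do not rank the cell types. Summed over its list, the smooth muscle level was 3978 to 4769 CPM in H4WT (CPM, the counts of a gene relative to a library's total, scaled by TMM), 479 to 762 CPM in H4K91R and 447 to 502 CPM in H4K91Q. The neuronal sum was 192 to 256, 801 to 988 and 640 to 678 CPM in the same order, the neural progenitor sum 1834 to 2233, 1718 to 1826 and 1497 to 1558 CPM, and the epithelial sum 1515 to 1654, 905 to 1012 and 983 to 1119 CPM. The fibroblast and mesenchyme sum was 5257 to 5992, 5818 to 6719 and 5941 to 6571 CPM, the endothelial sum 232 to 279, 248 to 283 and 233 to 239 CPM, and the pluripotent sum 223 to 248, 165 to 183 and 245 to 309 CPM. Most of the endothelial sum came from 1 marker, Sox17, whose group means were 202, 216 and 188 CPM. Tie1 (0.381, 0.318 and 0.181 CPM) and Erg (0.139, 0.104 and 0.128 CPM) were barely counted. The level sum therefore does not show a steady level of the other endothelial markers. Sums also hide opposite moves. Of the endothelial markers, Kdr fell from 7.68 to 2.89 and 2.91 CPM, and Cdh5 rose from 6.65 to 10.2 and 12.4 CPM. Pecam1 went from 0.808 to 0.605 and 2.47 CPM. Of the neural progenitor markers, Sox1, Sox2, Pax6, Fabp7, Hes5 and Msi1 rose in both mutants, Fabp7 from a mean of 44.7 CPM to 333 and 231 CPM. Vim, the most abundant, fell from 1742 to 1158 and 1072 CPM, and Nes was at 168, 154 and 119 CPM. Of the fibroblast and mesenchyme markers, Lum rose from 3.98 to 11.4 and 24.6 CPM, while Pdgfrb fell from 51.1 to 35.0 and 32.2 CPM. Of the pluripotent markers, Nanog, Pou5f1, Zfp42, Dppa4 and Utf1 fell in H4K91R and rose in H4K91Q, Pou5f1 from 24.6 CPM to 9.91 and 60.9 CPM. Klf4, the most abundant, was at 174, 143 and 142 CPM. Tfcp2l1 was at 14.8, 5.81 and 12.0 CPM, and Esrrb at 3.68, 4.17 and 13.5 CPM. Of the epithelial markers, Cdh1, Krt8, Krt18, Krt19, Dsp and Perp fell in both mutants. Krt8, the most abundant, fell from 519 to 290 and 327 CPM. Epcam (101, 94.8 and 112 CPM) and Cldn6 (156, 145 and 144 CPM) were not called in either mutant. The macrophage sum was at most 9.79 CPM in any library, with the defining markers C1qa and Adgre1 at 0 in every library. The part of these marker shifts in the changes described here was not tested. In bulk RNA, fewer cells of a type and less RNA per cell cannot be told apart.

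The promoter stretches of 3 genes are shown because the genes differ in how they moved: Ltbp2 had the largest decrease of the members, Tgfb1 decreased less, and Tgfb2 was level in all groups. They are RefSeq sequences of build GRCm38.p6, on the strand of the gene, each before an annotated start. Each was trimmed where an exon of the gene in GENCODE M21 or, at the gene's outer end, its RefSeq span begins. The Ltbp2 stretch lies on the minus strand at chr12:84876559-84876741, the Tgfb1 stretch on the plus strand at chr7:25686752-25687001 and the Tgfb2 stretch on the minus strand at chr1:186705990-186706239. The Tgfb2 stretch lies inside the span RefSeq gives the gene, which reaches further 5′ to position 186709697, so it precedes an inner start and not the outer end of the gene. Capitals mark CAGAC or its reverse complement GTCTG, a core of the SMAD binding element, and TATAAA, the core of a TATA box.
Ltbp2: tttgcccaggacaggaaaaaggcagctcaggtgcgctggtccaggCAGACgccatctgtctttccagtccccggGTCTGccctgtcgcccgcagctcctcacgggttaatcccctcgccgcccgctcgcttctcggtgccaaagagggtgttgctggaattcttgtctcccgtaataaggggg
Tgfb1: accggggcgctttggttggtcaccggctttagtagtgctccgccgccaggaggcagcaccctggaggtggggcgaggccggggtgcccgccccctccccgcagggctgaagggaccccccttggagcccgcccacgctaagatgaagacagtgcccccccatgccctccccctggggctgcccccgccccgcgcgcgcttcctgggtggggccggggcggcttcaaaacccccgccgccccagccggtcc
Tgfb2: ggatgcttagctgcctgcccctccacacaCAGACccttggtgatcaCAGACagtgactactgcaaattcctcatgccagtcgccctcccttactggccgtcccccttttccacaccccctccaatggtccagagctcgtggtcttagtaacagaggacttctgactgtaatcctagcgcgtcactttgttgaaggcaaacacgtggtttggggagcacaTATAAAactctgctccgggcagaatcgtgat

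RefSeq gave 13 windows of 250 bases before annotated starts for 9 of the 10 members. Of these, 3 were of Ltbp4, and its windows at 27333649-27333898 and 27333664-27333913 share most of their bases, so the windows are not separate units. The windows were not trimmed, and some reach into the gene. That of Ltbp2 is 84876492-84876741, where the RefSeq span ends at 84876558. On either strand, CAGAC was in 8 of the 13 windows, against 42.2% of 32851 windows of this length over all genes. The Ltbp2 window held 2 matches, the Tgfb2 window held 2, and the Tgfb1 window held 0. Of the other motifs searched on both strands, GGGCGG was in 7 of the 13 windows (32.7% over all genes), TATAAA in 1, that of Tgfb2 (12.4%), and TGANTCA (the AP-1 site, 6.75%), the TEAD site GGAATG (12.6%) and the CArG box of serum response factor (1.47%) in 0. None of the matches capitalised overlaps another. A match is a run of letters and was not tested as a binding site, and counts per gene do not show which of several starts is used.

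Ltbp2, the matrix protein of elastic fibres (Entrez 16997, chromosome 12, 84783212 to 84876558), was abundant in H4WT and nearly lost in both mutants. It stood at 87.1, 153 and 154 CPM in H4WT replicates 1, 2 and 3, at 11.04, 6.52 and 6.20 CPM in H4K91R, and at 5.96, 9.46 and 12.6 CPM in H4K91Q. The lowest H4WT library lay far above the highest mutant library, and replicate 1 was the low one within H4WT. The fitted log2 change was -4.01 ± 0.29 in H4K91R and -3.85 ± 0.27 in H4K91Q (SE, n = 3 libraries per group), 16.1-fold and 14.4-fold lower than in H4WT.

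Ltbp1, the most widely studied carrier of latent TGF-beta (Entrez 268977, chromosome 17, 75005480 to 75392512), was lower in the mutants by a smaller amount. Its level was 217, 233 and 239 CPM in H4WT, 154, 157 and 147 CPM in H4K91R, and 139, 140 and 162 CPM in H4K91Q. Each mutant group lay below H4WT without overlap, with log2 changes of -0.59 ± 0.075 and -0.64 ± 0.075.

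Ltbp4, which binds latent TGF-beta and takes part in elastic fibre assembly (Entrez 108075, chromosome 7, 27305140 to 27339720), went the other way. It stood at 51.4, 59.6 and 53.2 CPM in H4WT, 96.9, 89.5 and 88.3 CPM in H4K91R, and 78.5, 74.6 and 88.7 CPM in H4K91Q. All 6 mutant libraries were above all H4WT libraries, with log2 changes of 0.73 ± 0.086 and 0.55 ± 0.085. Ltbp3, another carrier of latent TGF-beta (Entrez 16998, chromosome 19, 5740900 to 5758536), was at 40.7, 53.8 and 50.1 CPM in H4WT, 63.6, 55.3 and 56.7 CPM in H4K91R, and 53.5, 49.1 and 60.2 CPM in H4K91Q. The H4K91R libraries lay above those of H4WT by a narrow margin and the H4K91Q libraries overlapped them. Its log2 changes of 0.27 ± 0.11 and 0.16 ± 0.11 were not called. In H4K91R the call was made with RLE or library size scaling, with DESeq2, with the compared groups only, and without H4WT replicate 2 or H4K91Q replicate 2 or 3. In H4K91Q it was made with library size scaling, at a log2 change of 0.33.

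**Figure D1:**
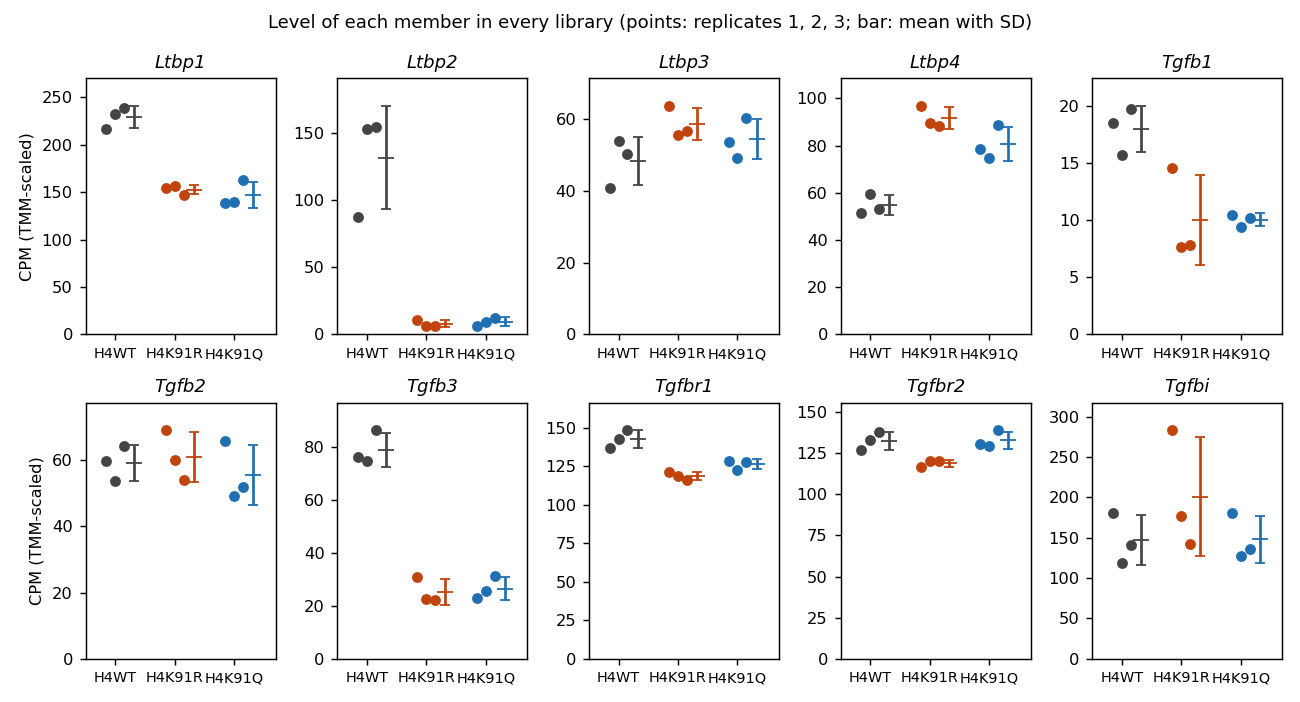
Level of each of the 10 members (y axis, TMM-scaled CPM, from 0) in the 3 libraries of H4WT, H4K91R and H4K91Q (points, replicates 1, 2 and 3 from left to right; bars show the mean and SD). Ltbp2, Ltbp1 and Tgfb3 lie lower in every mutant library than in any H4WT library, Ltbp4 lies higher, and Tgfb2 overlaps between all groups.

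The ligand genes parted from each other. Tgfb3 (Entrez 21809, chromosome 12, 86056743 to 86079041) was at 76.3, 74.7 and 86.5 CPM in H4WT, 31.1, 22.6 and 22.4 CPM in H4K91R, and 22.8, 25.8 and 31.2 CPM in H4K91Q. The groups did not overlap, and the log2 changes were -1.62 ± 0.14 and -1.57 ± 0.13, a 3.08-fold and a 2.98-fold decrease. Tgfb1 (Entrez 21803, chromosome 7, 25687002 to 25705077) was at 18.5, 15.7 and 19.7 CPM in H4WT, 14.6, 7.62 and 7.87 CPM in H4K91R, and 10.5, 9.41 and 10.2 CPM in H4K91Q. Replicate 1 of H4K91R was close to the lowest H4WT library, while the other mutant libraries were well below it. The log2 changes of Tgfb1 were -0.79 ± 0.21 and -0.82 ± 0.20, and without H4K91R replicate 1 the change in H4K91R was -1.19.

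Tgfb2 (Entrez 21808, chromosome 1, 186622787 to 186709697) showed no such difference. Its libraries ran from 53.6 to 64.3 CPM in H4WT, from 53.8 to 68.96 CPM in H4K91R and from 49.1 to 65.8 CPM in H4K91Q. The ranges overlapped almost fully, and the log2 changes were 0.057 ± 0.12 (95% interval -0.21 to 0.32) and -0.080 ± 0.12 (-0.34 to 0.18).

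Both receptor genes moved little. Tgfbr1, the signalling type I receptor (Entrez 21812, chromosome 4, 47353222 to 47414926), was at 137, 143 and 148 CPM in H4WT, 121, 119 and 116 CPM in H4K91R, and 128, 123 and 128 CPM in H4K91Q. Neither mutant overlapped H4WT, and the log2 changes were -0.26 ± 0.062 and -0.18 ± 0.061. The H4K91Q call ended with replicate number as a block over all 9 libraries, at a log2 change of -0.18. The labels do not state that replicate numbers pair the groups. It also ended without H4WT replicate 2 or 3 or H4K91Q replicate 1 or 2, at -0.18, -0.15, -0.19 and -0.16 in turn, and with no filter or the compared groups only, at -0.17 in each. With library size scaling both Tgfbr1 calls ended, at -0.079 in H4K91R and -0.0063 in H4K91Q.

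Tgfbr2, the ligand-binding type II receptor (Entrez 21813, chromosome 9, 116087695 to 116175363), was at 127, 133 and 138 CPM in H4WT, 116, 120 and 120 CPM in H4K91R, and 130, 130 and 139 CPM in H4K91Q. The H4K91R libraries were just below H4WT, and the H4K91Q libraries were at the H4WT level. The log2 changes of -0.16 ± 0.063 and 0.0043 ± 0.063 were not called. With library size scaling they were 0.027, of the other sign, and 0.18, which was called, and without H4K91Q replicate 3 the H4K91R change of -0.16 was called. Tgfbi (Entrez 21810, chromosome 13, 56609586 to 56639359) was at 180, 119 and 141 CPM in H4WT, 283, 177 and 142 CPM in H4K91R, and 181, 127 and 136 CPM in H4K91Q. Replicate 1 was the highest library of each group, the groups overlapped, and the log2 changes of 0.46 ± 0.22 and 0.021 ± 0.22 were not called. The H4K91R change was called with library size scaling (0.65), with no filter (0.47), and without H4WT replicate 1 (0.64) or H4K91R replicate 3 (0.66).

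In H4K91R, 5 of the 10 members were called lower (Ltbp1, Ltbp2, Tgfb1, Tgfb3 and Tgfbr1) and 1 higher (Ltbp4), at an adjusted p below 0.05 in edgeR, Benjamini-Hochberg over 14761 genes. Over all tested genes 25.1% were called lower and 20.9% higher, 46.0% in all. In H4K91Q the counts were 5 lower (Ltbp1, Ltbp2, Tgfb1, Tgfb3 and Tgfbr1) and 1 higher (Ltbp4), against 23.8% and 22.5% of all genes, 46.3% in all. Both comparisons use the same H4WT libraries, and nothing is read from these counts, since the members were proposed with these contrasts known. The libraries did not overlap for 6 members lower and 2 higher in H4K91R (30.1% and 25.0% of all genes, 55.1% in all), and for 5 lower and 1 higher in H4K91Q (27.7% and 27.4%, 55.1% in all). The median log2 change of the members was -0.21 in H4K91R and -0.13 in H4K91Q, beside -0.030 and 0.013 over all tested genes. TMM factors were 0.911 to 0.935 in H4WT and 1.03 to 1.06 in the mutants. With library size only, the median over all genes became 0.15 and 0.18, and the share of calls that were upward went from 45.5% to 71.4% in H4K91R and from 48.5% to 72.9% in H4K91Q.

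**Figure D2:**
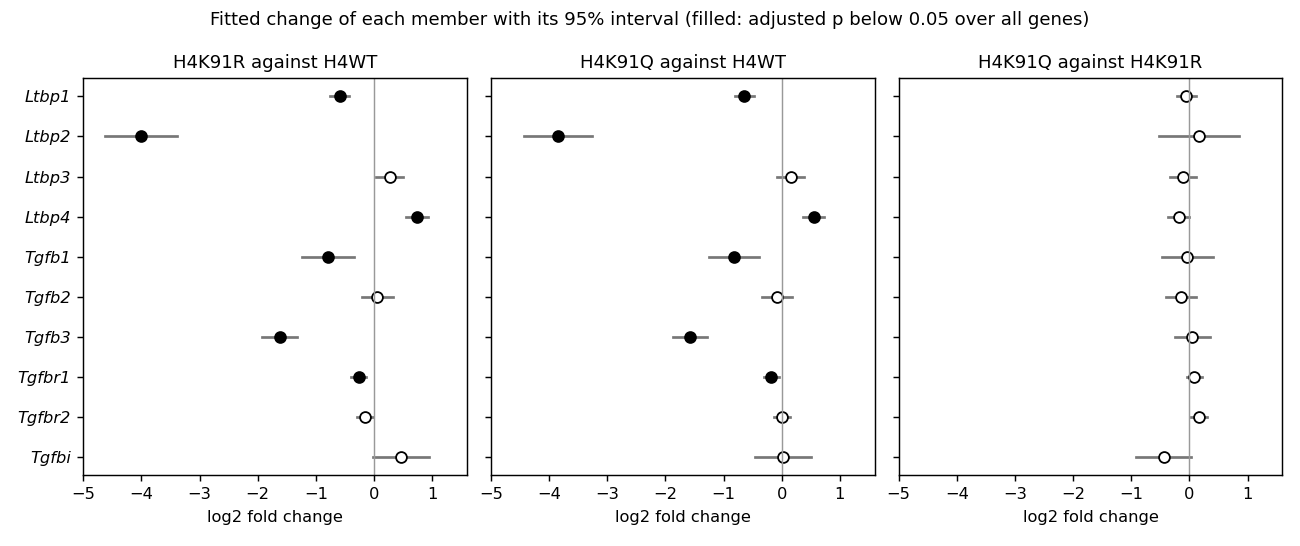
Fitted log2 fold change of each member (points) with its 95% interval (lines) in the 3 contrasts, filled where the adjusted p was below 0.05 over all genes. Ltbp2 lies near -4 in both mutants against H4WT, Tgfb3 near -1.6, and every member lies within 0.5 of 0 between the mutants.

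Between the mutants, 0 of 10 members were called, beside 5.16% of all genes, 2.37% higher and 2.78% lower in H4K91Q (edgeR, DESeq2 and limma-voom each called 0, and 2 had an unadjusted p below 0.05). Those 2 were Tgfbr2, at a log2 difference of 0.16 ± 0.063 in H4K91Q against H4K91R (edgeR, adjusted p = 0.148), and Ltbp4, at -0.19 ± 0.083 (edgeR, adjusted p = 0.208). The H4K91Q libraries lay above those of H4K91R for Tgfbr1 and Tgfbr2, 2 of 10 members, where 12.5% of all genes were so placed and 25.4% did not overlap in either direction. The intervals bound what these libraries could show: for Ltbp2 the 95% interval of the H4K91Q to H4K91R ratio ran from 0.695 to 1.81, for Ltbp1 from 0.861 to 1.08 and for Tgfb3 from 0.841 to 1.27. Genes proposed for moving in both mutants are not free of choice in this contrast either, so the count is given as a description. For Tgfbi, at -0.44 ± 0.22 (edgeR, adjusted p = 0.254), the ratio ran from 0.530 to 1.02.

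Set on a common scale by dividing CPM by kilobases of exon (GENCODE M21, GRCm38, union of exons), the levels in H4WT ran from Tgfbi at 54.1 ± 11.4 CPM per kb (SD, n = 3) through Ltbp1 at 33.3 ± 1.65, Tgfb3 at 23.4 ± 1.90, Tgfbr1 at 22.3 ± 0.875, Ltbp2 at 19.4 ± 5.68, Tgfbr2 at 16.2 ± 0.663 and Tgfb2 at 11.4 ± 1.03 to Ltbp4 at 9.34 ± 0.732, Ltbp3 at 9.29 ± 1.30 and Tgfb1 at 8.27 ± 0.937. From Tgfb3 to Tgfbr2, and again from Ltbp4 to Tgfb1, neighbours in this order lay within their spread. The transcripts in use are not known here, so these lengths are approximate. On the same scale Ltbp2 stood at 1.17 ± 0.400 CPM per kb in H4K91R and 1.38 ± 0.490 in H4K91Q, the lowest of the 10 in both.

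Within the family, Ltbp2 made up 26.8% ± 4.94 of the summed Ltbp level per kb in H4WT (SD, n = 3), 2.31% ± 0.677 in H4K91R and 2.91% ± 0.834 in H4K91Q. Ltbp1 kept the largest share, at 47.0% ± 4.07, 44.1% ± 1.71 and 45.5% ± 0.705. Ltbp4 went from 13.2% ± 1.24 to 31.1% ± 0.290 and 29.3% ± 0.556, and Ltbp3 from 13.0% ± 0.427 to 22.5% ± 0.881 and 22.3% ± 0.771. The sum itself was 71.3 ± 9.01, 50.2 ± 2.32 and 46.9 ± 4.55 CPM per kb in H4WT, H4K91R and H4K91Q. Shares add to a fixed total, so a decrease of Ltbp2 by itself would raise the shares of the others. Ltbp1 also decreased and Ltbp4 increased in CPM, so the shares do not separate these moves.

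Among the ligands, Tgfb3 made up 54.4% ± 1.35 of the summed level per kb in H4WT, and Tgfb2 26.4% ± 0.487. In the mutants the order was turned, with Tgfb2 at 49.6% ± 3.83 in H4K91R and 46.0% ± 5.51 in H4K91Q, and Tgfb3 at 31.5% ± 0.709 and 34.1% ± 5.58. Tgfb1 held 19.2% ± 0.878, 18.9% ± 3.61 and 19.9% ± 0.294. The summed ligand level was 43.0 ± 3.72 CPM per kb in H4WT, 23.8 ± 4.63 in H4K91R and 23.2 ± 1.54 in H4K91Q. Tgfb2 itself was at 11.4, 11.7 and 10.7 CPM per kb, so its share rose as the sum fell.

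**Figure D3:**
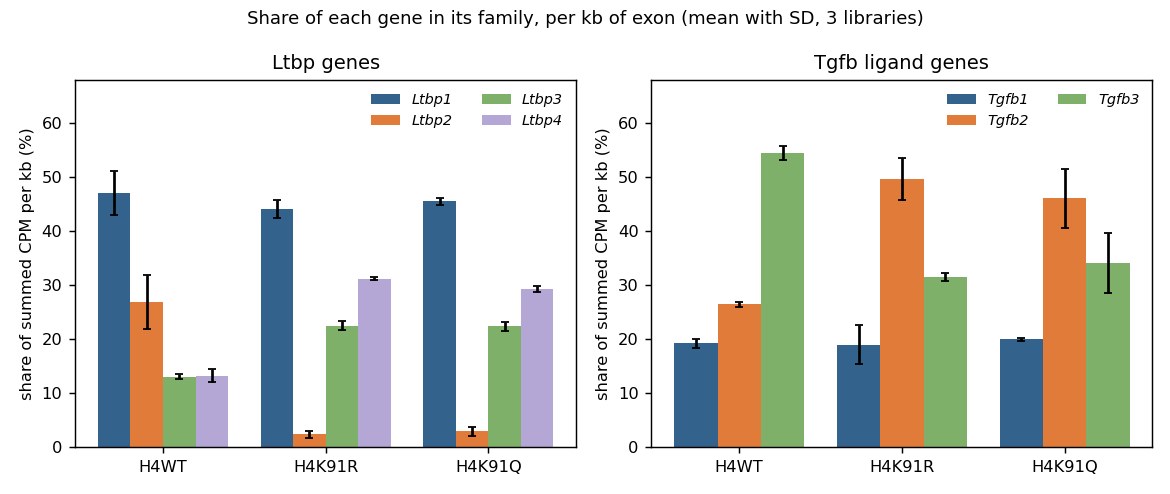
Share of each gene in the summed CPM per kb of the 4 Ltbp genes (left) and the 3 ligand genes (right), as mean (bars) and SD (lines) of 3 libraries per group. Ltbp2 drops from 26.8% in H4WT to 2.31% and 2.91%, and Tgfb2 takes the place of Tgfb3 as the ligand gene with the largest share.

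Across the 9 libraries, the genes of at least 2 CPM whose log2 CPM was most like that of Ltbp2, out of 12503, were Pbxip1 (Pearson r = 0.995), Fbln5 (0.994), Stim1 (0.994), Ehd3 (0.993) and Ptpn3 (0.993). These r values rest largely on the gap between H4WT and the mutants, which all such genes share, and say little about libraries within a group. Fbln5, the elastic fibre protein fibulin-5, was at 713 CPM in H4WT, 128 in H4K91R and 161 in H4K91Q. Pbxip1 had a much smaller gap, from 127 CPM to 78.8 and 82.4. The gene most like Tgfb3 was Ccn1, a matricellular protein (r = 0.997), the one most like Ltbp1 was Patj (0.996), most like Ltbp4 was Ankle1 (0.991), most like Tgfbr1 was Zfp36 (0.983) and most like Tgfb1 was Gdf15 (0.972). For Tgfbr2 it was Thsd4 (0.972), for Ltbp3 Pomgnt2 (0.947) and for Tgfb2 Lgals3bp (0.943).

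The proteins that hold, anchor or release latent TGF-beta were followed as a list of 28 genes. This list and the receptor and response lists below were chosen with earlier results of these data known. Their counts, medians and p-values are therefore given as a description. Of the 27 tested, 4 rose and 15 fell in H4K91R, and 2 rose and 14 fell in H4K91Q, where over all tested genes 20.9% rose and 25.1% fell in H4K91R and 22.5% and 23.8% in H4K91Q. The list had median log2 changes of -0.38 and -0.52. With library size scaling 10 fell in H4K91R, where 2013 of all 14761 tested genes were called lower, against 3705 in the main fit. Thbs1, the thrombospondin that can activate latent TGF-beta, fell from 2067 ± 366 CPM in H4WT (SD, n = 3) to 311 ± 61.1 in H4K91R and 253 ± 40.1 in H4K91Q (log2 changes -2.73 ± 0.16 and -3.03 ± 0.16, edgeR, adjusted p = 1.02e-07 and 1.26e-07). Fbln5 fell with log2 changes of -2.47 ± 0.14 and -2.14 ± 0.14 (edgeR, adjusted p = 8.71e-08 and 3.42e-07), and the integrin subunit Itgb1 with -1.25 ± 0.11 in each (edgeR, adjusted p = 1.30e-06 and 1.98e-06). Fibronectin, Fn1, and the integrin subunit Itgav, both picked after their values were seen, changed by -2.32 and -1.44 in H4K91R and by -2.81 and -1.64 in H4K91Q. Against this direction, the microfibril gene Mfap2 rose by 0.71 ± 0.096 and 0.88 ± 0.095 (edgeR, adjusted p = 5.49e-05 and 1.02e-05). Elastin, Eln, rose by 1.08 ± 0.32 and 1.55 ± 0.31 (edgeR, adjusted p = 0.0146 and 0.00136). Without H4WT replicate 2 these Eln changes were 1.86 and 2.33, and the H4K91R call ended without H4K91R replicate 3 (adjusted p = 0.0512). Itgb8, the subunit of an integrin that activates latent TGF-beta, rose by 0.60 ± 0.18 in H4K91R (edgeR, adjusted p = 0.0150), a call that ended without H4K91R replicate 2 (0.0768).

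Of 23 receptor and SMAD pathway genes, all tested, 4 rose and 14 fell in H4K91R, and 2 rose and 13 fell in H4K91Q, beside the same 20.9% and 25.1% of all genes in H4K91R and 22.5% and 23.8% in H4K91Q. The median log2 changes were -0.37 and -0.35. With library size scaling 8 and 9 fell. Of all 14761 tested genes, that scaling called 2013 lower in H4K91R and 2069 in H4K91Q, against 3705 and 3516 in the main fit. Skil, a SMAD co-repressor that TGF-beta induces, fell with log2 changes of -1.34 ± 0.11 and -1.24 ± 0.11 (edgeR, adjusted p = 7.80e-07 and 1.81e-06). Pmepa1, an induced feedback inhibitor, fell with -0.70 ± 0.079 and -0.70 ± 0.078 (edgeR, adjusted p = 1.20e-05 and 1.25e-05), and Fkbp1a, which binds the type I receptor, with -0.60 ± 0.065 in each (edgeR, adjusted p = 9.23e-06 and 1.02e-05). The inhibitory Smad7, picked after its values were seen, changed by -1.24 and -1.02. Those that rose included Bambi, a pseudoreceptor, at 0.71 ± 0.12 and 0.71 ± 0.11 (edgeR, adjusted p = 3.07e-04 and 2.64e-04), and the co-receptor Tgfbr3 at 0.50 ± 0.089 and 0.57 ± 0.088 (edgeR, adjusted p = 4.76e-04 and 1.75e-04). Acvr1b, an activin receptor, rose by 0.47 ± 0.12 in H4K91R (edgeR, adjusted p = 0.00639).

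Of 26 genes known to respond to TGF-beta, all tested, 1 rose and 17 fell in H4K91R, and 2 rose and 16 fell in H4K91Q, beside 20.9% and 25.1% of all genes in H4K91R and 22.5% and 23.8% in H4K91Q. With the replicate block 4 rose in H4K91Q. The median log2 changes were -0.82 and -0.88. Inhba, a subunit of activin, fell from 53.8 ± 8.85 CPM to 4.77 ± 2.53 and 5.23 ± 0.910 CPM (log2 changes -3.40 ± 0.25 and -3.36 ± 0.24, edgeR, adjusted p = 3.68e-07 and 5.39e-07). Timp3, an inhibitor of metalloproteinases, fell with log2 changes of -1.16 ± 0.083 and -1.26 ± 0.082 (edgeR, adjusted p = 3.02e-07 and 3.42e-07). Ccn1 fell with -1.26 ± 0.092 and -1.21 ± 0.092 (edgeR, adjusted p = 3.66e-07 and 8.29e-07). Ccn2, connective tissue growth factor, fell with -2.38 ± 0.18 and -2.54 ± 0.18 (edgeR, adjusted p = 4.56e-07 and 5.55e-07). Postn, a matrix protein, rose by 0.48 ± 0.12 and 1.08 ± 0.13 (edgeR, adjusted p = 0.00696 and 1.69e-05), and Klf10 by 0.40 ± 0.084 in H4K91Q (edgeR, adjusted p = 0.00192). Many of these genes respond to other signals too, and smooth muscle and neuronal markers moved in the same comparisons. Since the list was chosen with earlier results of these data known, nothing is read from its counts.

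**Figure D4:**
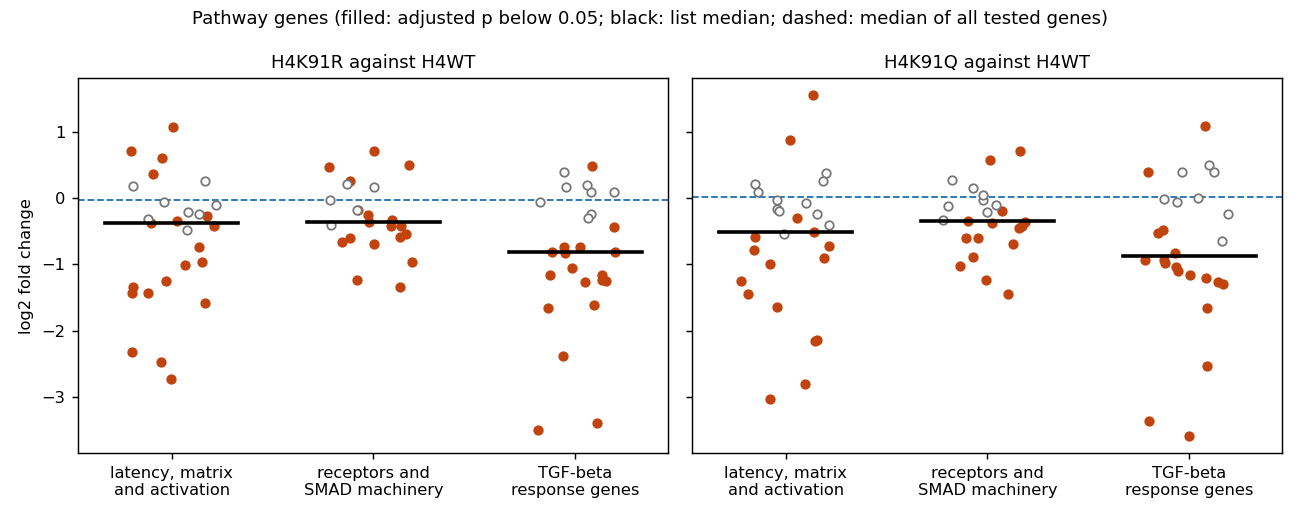
Log2 fold change of each tested gene of the 3 pathway lists in each mutant against H4WT (points, filled where the adjusted p was below 0.05), with the list median (black) and the median of all tested genes (dashed). The medians are -0.38, -0.37 and -0.82 in H4K91R and -0.52, -0.35 and -0.88 in H4K91Q, against -0.030 and 0.013 over all genes.

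Between the mutants few pathway genes were called. Over all tested genes 5.16% were called, 2.37% higher and 2.78% lower in H4K91Q. In the list that holds, anchors or releases TGF-beta 0 of 27 were called (edgeR, with 4 at an unadjusted p below 0.05, and 1 called by DESeq2 and 0 by limma-voom). The smallest p-values there were those of Dcn at 0.48 ± 0.15 and Plat at -0.46 ± 0.17 (edgeR, adjusted p = 0.0795 and 0.129). Of the receptor and SMAD genes 0 of 23 were called (edgeR, with 2 at an unadjusted p below 0.05, and 0 by DESeq2 and limma-voom), with Smad3 at -0.23 ± 0.088 and Zfyve9 at -0.21 ± 0.089 (edgeR, adjusted p = 0.144 and 0.189). Of the response genes 2 of 26 were higher in H4K91Q. Postn differed by 0.61 ± 0.12 (edgeR, adjusted p = 0.0172), which ended without H4K91Q replicate 2 (0.0822). Junb differed by 0.33 ± 0.085 (edgeR, adjusted p = 0.0436), a call that ended in 7 of the 9 fits without 1 library. Those were the fits without H4WT replicate 3 and without any 1 of the 6 mutant libraries, with adjusted p from 0.0530 to 0.169. The median log2 differences of the 3 lists were -0.035, -0.013 and 0.043, beside 0.0054 over all genes.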

How the data were processed

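Poly(A) RNA of 9 libraries was extracted with RNeasy and made into libraries with NEBNext Ultra II, per the labels' protocols. The deposited values are expected counts per Entrez gene, all whole, for which the submitters' processing notes name Salmon 0.8.2, mm10 and DESeq2. The sources used here do not give the annotation, trimming, strand or rounding. Of 24100 IDs, 24045 matched a symbol in RefSeq's GRCm38.p6 table, whose coordinates are used, and all list genes matched.

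Counts were filtered with filterByExpr (minimum count 10), which kept 14761 genes, scaled by TMM, and tested with edgeR 4.0.16 (R 4.3.3): a quasi-likelihood fit with 1 mean per group over all 9 libraries, two-sided, Benjamini-Hochberg over all tested genes, called below 0.05. SE is the size of the log2 change divided by the square root of F. A count of 0 allows up to 3 counts, 0.111 to 0.367 CPM, counting error only. Log2 CPM for likeness used a prior count of 0.5. The fit was tested on simulated data. The alternatives were RLE or library size scaling, no filter, DESeq2 1.42.0, limma-voom (limma 3.58.1), the compared groups only, a replicate block, and leaving out each library.

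The members, pathway lists, markers and alternatives were chosen with earlier results of these data known. Named are all members, and from each list up to 3 called genes of 1 CPM or more per direction and contrast, by smallest adjusted p, or, where 0 were called, the 2 of smallest p. Adamtsl2 had too few counts to test. Replicate numbers in the labels are shared by the groups. Deviations of same-numbered libraries from their group means correlated at 0.12, 0.17 and 0.11 between H4K91Q and H4WT. These were therefore treated as possibly paired, from the data alone, since the labels state no pairing. The main fit held no term for replicate number, and the replicate block was fitted over all 9 libraries. The other contrasts had a pair below 0.1. Some genes that the rule or lists hold are not reported here.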

Additional observations from a re-analysis of the deposited data

How the results depend on the processing

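Of 480 values of members under the alternatives, 439 kept their direction and their side of the threshold, 16 came past it, 9 fell behind it and 16 changed sign, all of the last for changes that were not called. Ltbp1, Ltbp2, Ltbp4, Tgfb1 and Tgfb3 kept their calls against H4WT under every alternative run. Values that changed sign in H4K91R against H4WT were Tgfbr2 with library size scaling (0.027) and Tgfb2 without single libraries (-0.044 to 0.14). In H4K91Q against H4WT they were Tgfb2 with library size scaling (0.090) and, without single libraries, Tgfb2 (-0.22 to 0.00020), Tgfbr2 (-0.028 to 0.026) and Tgfbi (-0.15 to 0.19). Between the mutants, without single libraries, they were Ltbp2 (-0.099 to 0.53), Tgfb1 (-0.20 to 0.37) and Tgfb3 (-0.077 to 0.23). In these cases the cause was not tested.

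Of 384 counts under the alternatives, 343 stayed within 1.5 times. Members called higher in H4K91R were 2 with RLE scaling, no filter, DESeq2, the compared groups only and the replicate block, 3 with library size scaling, and 1 to 2 without single libraries. With library size scaling, members called higher in H4K91Q were 3, receptor and SMAD genes called lower in H4K91R were 8, and response genes called higher in H4K91R were 2. With that scaling 4 genes of each pathway list were called higher in H4K91Q. Over all 14761 tested genes it called 5031 higher in H4K91R and 5557 in H4K91Q, against 3092 and 3314 in the main fit. It called 2013 lower in H4K91R, against 3705. With RLE scaling, no filter, DESeq2, the compared groups only or the replicate block, 3065 to 3319 genes were called higher in H4K91R. In H4K91Q they were 3021 to 3349. The genes tested ranged from 13958 to 20103. Response genes called higher in H4K91Q were 4 also with no filter, DESeq2, the compared groups only and the replicate block, and 2 to 4 without single libraries. Between the mutants, response genes called higher were 1 with RLE scaling and 0 to 3 without single libraries. Latency, matrix and activation genes called higher there were 1 with no filter, DESeq2, the compared groups only and the replicate block. Without single libraries they were 0 to 1. Over all tested genes, calls higher there were 304 to 475 with those settings and 110 to 543 without single libraries, against 350 in the main fit.

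With the replicate block, 1 member (Tgfbi, log2 difference -0.41), 1 latency, matrix and activation gene and 1 response gene were called lower in H4K91Q than in H4K91R. Of all 14761 tested genes, the block called 563 lower in H4K91Q than in H4K91R, against 411 in the main fit. Tgfbi was also called higher in H4K91R than in H4WT with the block (0.42). Same-numbered libraries correlated at 0.13, 0.023 and -0.13 between H4K91R and H4WT and at 0.18, -0.0036 and -0.0099 between the mutants, so the numbers were not taken to pair these groups. In these, replicate 1 alone correlated best with its own number. In H4K91Q against H4WT the block changed no other call of a member than that of Tgfbr1. Low counts limit the precision of Ltbp2 and Tgfb1, which had 63 to 215 and 80 to 253 counts in the mutant libraries.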
